A study of Mus musculus with 15 samples.

Results

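The mir-298 and mir-296 pair was described in left ventricular (LV) tissue of 15 mice, using every row of the deposited counts whose name starts with mir-298- or mir-296-. These are 4 of 1836 rows, the 5p and the 3p arm of each miRNA. Only mir-298-5p had more than 10 reads over the 15 libraries, and the results below rest on this row. The pair was chosen by the measured read counts of mir-298-5p, which differed between AGAT-/- and wt mice in these libraries, so its values in that comparison are given as a description, without a test.

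Libraries came from 5 wt mice, 5 untreated AGAT-/- mice and 5 AGAT-/-hArg mice, which were AGAT-/- and carried osmotic mini pumps with homoarginine (hArg) over 4 weeks. AGAT (arginine:glycine amidinotransferase), the product of Gatm, forms the creatine precursor guanidinoacetate and hArg, so that these metabolites are missing without the enzyme. The line had been crossed to C57BL/6J for 6 or more generations, and heterozygous parents gave the wt and AGAT-/- littermates. Each library is 1 mouse, the labels mention pumps for the supplemented mice only, and ages and sexes are not given in the sources used here. Total counts lay between 365634 and 570492 reads per library. Lane 8 held the wt and AGAT-/- libraries and lane 2 held all AGAT-/-hArg libraries, and lane and supplementation therefore cannot be told apart. Gatm does not give a miRNA, and the genotype could not be checked in these counts.

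A miRNA precursor folds into a hairpin, from which an upstream (5p) and a downstream (3p) arm can be cut. The arm that is kept guides Argonaute proteins to mRNAs, mainly by pairing through its seed, bases 2 to 8. Mir-296 and mir-298 are neighbours at the imprinted Gnas locus, where genes are expressed from only the maternal or only the paternal copy, and the pair is known to be expressed from the paternal copy. Mir-296 is best known for its part in the growth of new blood vessels. Read counts do not distinguish the parental copies.

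The 4 mature sequences (RefSeq, GRCm38.p6) are printed because they show which reads each row can take, with the seed in capitals.
mir-298-5p: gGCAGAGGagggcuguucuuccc
mir-298-3p: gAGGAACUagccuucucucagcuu
mir-296-5p: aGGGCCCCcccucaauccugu
mir-296-3p: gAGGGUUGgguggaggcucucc

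All 4 seeds differ, and none of them is the seed of any of the 1678 other mature mouse miRNAs in the RefSeq table. Mir-298-5p, of 23 bases, shared at most 11 bases in a row with another mature miRNA, miR-7047-5p. For the other 3 arms the longest shared run was 8 or 9 bases.

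The hairpins show where the arms lie, with both arms in capitals.
Mir298: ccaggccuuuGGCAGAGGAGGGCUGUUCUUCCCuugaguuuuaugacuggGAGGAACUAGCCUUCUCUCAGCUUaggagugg
Mir296: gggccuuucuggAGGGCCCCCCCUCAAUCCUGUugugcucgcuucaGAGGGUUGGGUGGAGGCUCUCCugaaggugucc

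Mir298 lies at chr2:174267504-174267585 and Mir296 at chr2:174267047-174267125 (GRCm38, GENCODE M21), both on the minus strand and separated by 378 bases. They overlap no other annotated gene. Nespas, the antisense transcript of the Gnas locus, is on the same strand and ends 13.7 kb upstream of Mir298, at chr2:174281237-174295436. Gatm is on the same chromosome (chr2:122594467-122611303), 51.7 Mb from Mir298. The nearest miRNA of the table outside the pair, mir-7004, lies 5.63 Mb away and had 19 reads on its arms over the 15 libraries.

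In the deposited table, reads of the pair fell almost entirely on 1 arm. Such a split was common there. Of 228 precursors with 1 arm above 100 reads, 107 had the other arm at 0 and 41 had it at 1 to 10. Mir-298-5p had 3017 reads over the 15 libraries and between 77 and 367 in each, which made it the 69th of 647 rows with more than 10 reads. It took 0.0443% of all reads. The other arm, mir-298-3p, had 7 reads, or 0.231% of the reads of the precursor (exact binomial 95% interval 0.0931% to 0.476%). This interval, like those below from single libraries, covers counting error only.

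The 7 reads of mir-298-3p came from AGAT-deficient mice. AGAT-/- mouse 10 had 3 reads, AGAT-/- mice 6, 7 and 8 and AGAT-/-hArg mouse 12 had 1 read each, and all 5 wt libraries had none. The 3p share of mir-298 reads was 0.441% in AGAT-/- mice (6 of 1362 reads, 0.162% to 0.956%) and 0.0967% in AGAT-/-hArg mice (1 of 1034, 0.00245% to 0.538%). In wt mice it was 0 of 628 reads, with an exact upper bound of 0.586%. These intervals take the reads of all 5 mice of a group together, so they leave out the spread between mice. They overlap, which is not a test, and a difference in arm share between the groups was not tested.

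The mir-296 rows of the deposited table held almost no reads. Mir-296-5p had 1 read, in AGAT-/- mouse 10, and mir-296-3p is listed at 0 in all 15 libraries. The paper's supplement lists mir-296-5p as significantly higher in AGAT-/- than in wt mice, and the paper kept only miRNAs with more than 10 reads. The 1 read here falls short of that, so the deposited row does not hold every mir-296-5p read the authors counted. For this reason no ratio between mir-298 and mir-296 is given. A detection floor of 3 reads was worth 5.26 CPM in the deepest and 8.20 CPM in the shallowest library (counts per 1e6 reads). Low counts were common in the table, as 276 of its 918 precursors (30.1%) had 3 reads or fewer on each arm and 111 (12.1%) had none. A 0 or 1 of this table cannot be read as absence from the tissue. For mir-1a and mir-133a, the main miRNAs of cardiac and skeletal muscle, each 3p row is listed at 0 as well, while the 5p rows hold between 139 and 3305 reads.

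In wt mice, mir-298-5p was at 327, 266, 317, 195 and 331 CPM in mice 1 to 5 (after TMM normalization, which scales libraries to a common composition). AGAT-/- mice 6 to 10 had 410, 553, 509, 770 and 717 CPM. AGAT-/-hArg mice 11 to 15 had 364, 404, 305, 517 and 576 CPM. The lowest AGAT-/- mouse lay above the highest wt mouse, whereas the AGAT-/-hArg mice overlapped both groups, with mouse 13 inside the wt range and mice 14 and 15 inside the AGAT-/- range.

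**Figure D1:**
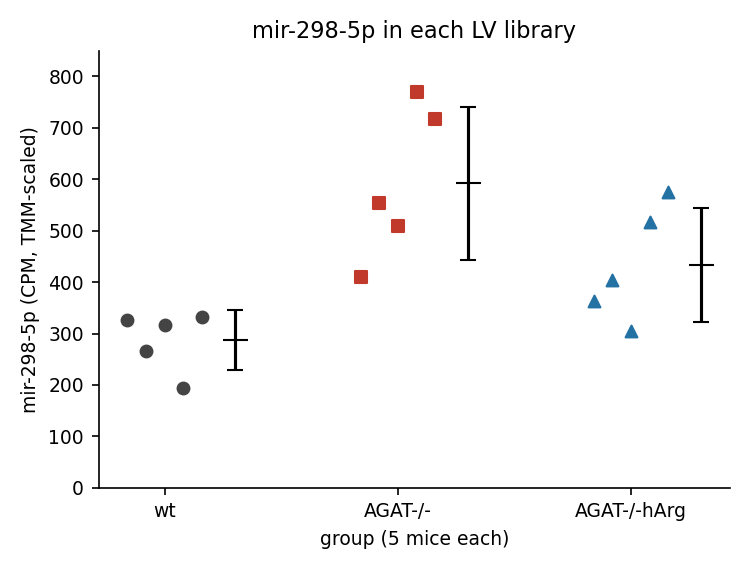
mir-298-5p in CPM (y axis, from 0) for each LV library of the 3 groups (x axis, 5 mice each); the bar beside the points is the mean with its SD. The AGAT-/- mice, from 410 to 770 CPM, all lie above the wt mice, and the AGAT-/-hArg mice, from 305 to 576 CPM, span the gap between them.

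Group means were 287 ± 57.9 CPM in wt, 592 ± 149 CPM in AGAT-/- and 433 ± 111 CPM in AGAT-/-hArg mice (SD, n = 5 each). The order of the means was therefore wt, AGAT-/-hArg, AGAT-/-. The SD was 20.2%, 25.2% and 25.7% of the mean in this order of wt, AGAT-/- and AGAT-/-hArg mice. Of this, counting of reads accounts for 8.92%, 6.07% and 6.96% of the mean when taken alone. In bulk tissue, fewer cells of a type and less RNA per cell cannot be told apart.

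Between AGAT-/- and wt mice the fold change of mir-298-5p was 2.04, or 1.03 on the log2 scale with a standard error of 0.17. This comparison is the one the miRNA was picked for, and nothing is read from the call. Over all rows, 12 of 562 (2.14%) passed an FDR of at most 0.05 in edgeR's quasi-likelihood test, and 13 of 562 (2.31%) had all AGAT-/- mice above all wt mice. The log2 fold change lay between 0.91 and 1.19 with each mouse left out.

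AGAT-/-hArg mice were compared with AGAT-/- mice to ask whether the level depended on homoarginine. Mir-298-5p had 0.729 of the AGAT-/- level, a log2 fold change of -0.46 (standard error 0.17, unadjusted 95% interval -0.81 to -0.10), and did not pass the FDR (FDR = 0.367, edgeR, 5 mice per group). Of 580 rows tested, 4 (0.69%) did, and 43 (7.41%) had an unadjusted p below 0.05. The FDR was 0.0151 when every row with at least 1 read was tested. With a 4-digit animal number from the labels added to the model, the log2 fold change was -0.19 (FDR = 0.874, edgeR), and these were the lowest and highest FDR over the settings tried.

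Against wt mice, AGAT-/-hArg mice had 1.48 times the level of mir-298-5p, a log2 fold change of 0.57 (standard error 0.17, unadjusted 95% interval 0.22 to 0.91), which did not pass the FDR either (FDR = 0.0711, edgeR, 5 mice per group). In this comparison 17 of 569 rows (2.99%) passed, and 71 (12.5%) had an unadjusted p below 0.05. Mir-298-5p passed with DESeq2 (FDR = 0.0154), when TMM was replaced by library totals (FDR = 0.0301, edgeR), with rows of at least 1 read (FDR = 0.000825, edgeR) and without AGAT-/-hArg mouse 13 (FDR = 0.0317, edgeR). Over the settings tried the FDR reached from 0.000825 to 0.694, the latter with the animal number in the model. The AGAT-/- and the wt libraries that enter these comparisons are those in which mir-298-5p was picked, so neither comparison is independent of that choice.

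**Figure D2:**
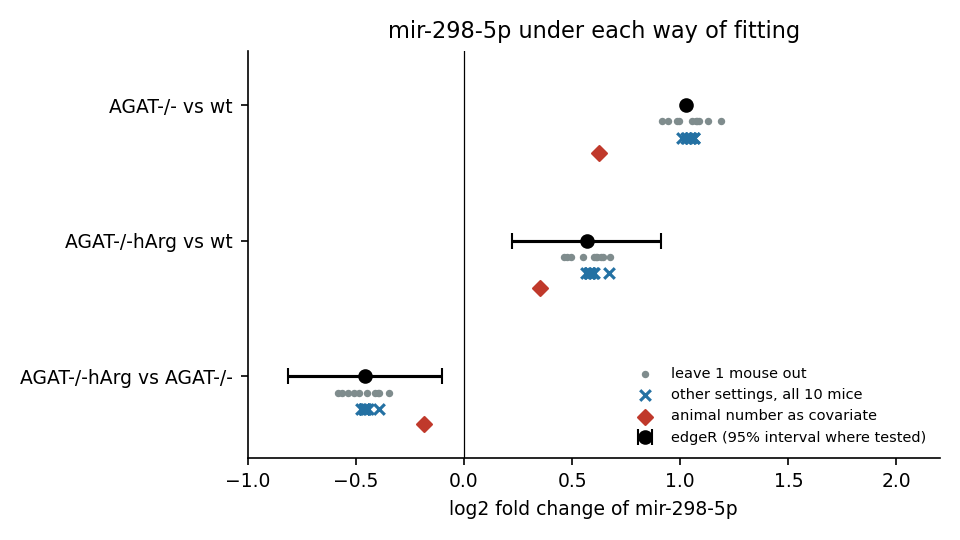
Log2 fold change of mir-298-5p (x axis) in the 3 comparisons (y axis). Black circles are the edgeR fits, with 95% intervals for the comparisons that were tested, and grey points leave out 1 mouse each. Blue crosses are other settings with no mouse left out (all 10 mice, or all 15 libraries in 1 fit), and red diamonds have the animal number as a covariate. The sign is the same in all fits drawn, and of these the diamonds lie nearest to 0, at 0.62, 0.35 and -0.19; a fit of the mice up to number 4700 only (0.33 for AGAT-/-hArg vs wt) is not drawn.

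The meaning of this animal number, which the labels give beside the mouse number, is not stated. Within each group it increases from the first to the last mouse, and the groups share only part of its range. All 5 wt mice, AGAT-/- mouse 6 and AGAT-/-hArg mice 11 to 13 have numbers below 4700. AGAT-/- mice 7 to 10 and AGAT-/-hArg mice 14 and 15 have numbers above it. Of the AGAT-/- mice, mouse 6 was at 410 CPM and mice 7 to 10 were between 509 and 770 CPM. Of the AGAT-/-hArg mice, mice 11 to 13 were between 305 and 404 CPM, and mice 14 and 15 were at 517 and 576 CPM. In both groups the mice above 4700 were higher than those below. This cut was chosen after seeing the data, and only 1 AGAT-/- mouse lies below it. Below the cut, AGAT-/-hArg mice 11 to 13 were at 364, 404 and 305 CPM in order of number, without a steady rise.

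AGAT-/-hArg mice 14 and 15 and AGAT-/- mouse 7, which carry 3 consecutive numbers, were at 517, 576 and 553 CPM. Their counting intervals overlapped, the lowest reaching from 449 to 593 CPM and the highest from 510 to 647 CPM. Up to number 4700, the 5 wt mice were between 195 and 331 CPM, the 3 AGAT-/-hArg mice between 305 and 404 CPM, and the single AGAT-/- mouse at 410 CPM, above every wt mouse. The number of this AGAT-/- mouse lies between those of wt mice 1 and 2, which were at 327 and 266 CPM. Its counting interval (351 to 476 CPM) overlapped those of wt mice 1 (277 to 384 CPM), 3 and 5. It did not meet those of wt mice 2 (220 to 319 CPM) and 4. Counting intervals leave out the spread between mice, so they compare these single libraries and not the groups. No wt mouse has a number above 4700.

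In the edgeR fit of the 10 AGAT-/- and AGAT-/-hArg mice with group and number as terms, mir-298-5p had a slope of 0.47 on the log2 scale per 100 numbers (standard error 0.11, unadjusted 95% interval 0.25 to 0.69). Its unadjusted p was the lowest of the 580 rows, and it did not pass the adjustment over all of them (FDR = 0.0945, edgeR). The AGAT-/- libraries in this fit are among those that chose the miRNA. None of the 580 rows (0%) passed the FDR for this term, and 27 (4.66%) had an unadjusted p below 0.05. In the fit of AGAT-/- and wt mice, the term was 0.34 per 100 numbers (standard error 0.13) and the group difference was 0.62 (both a description). This fit has a single slope for both groups. In order of number, the wt mice were at 327, 266, 317, 195 and 331 CPM, without a steady rise. A slope within the wt mice alone was not tested, so the 0.62 rests on taking the same slope in both groups. The part of age, litter or date in the pattern with the animal number was not tested, as the labels do not give them.

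**Figure D3:**
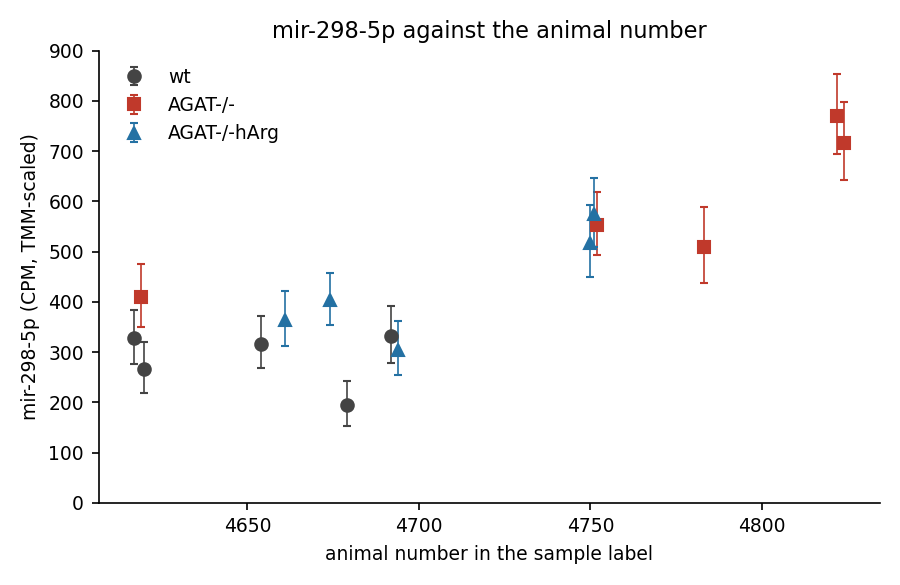
mir-298-5p in CPM (y axis, from 0) against the animal number of the sample label (x axis); each point is 1 mouse, with its exact Poisson 95% interval, and the symbol gives the group. AGAT-deficient mice above number 4700 (4 AGAT-/- and 2 AGAT-/-hArg) lie between 509 and 770 CPM. Those below (1 AGAT-/- and 3 AGAT-/-hArg) lie between 305 and 410 CPM, and wt mice, all below 4700, between 195 and 331 CPM. The 2 sets of AGAT-deficient mice thus also differ in their share of supplemented mice.

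For the rows most like mir-298-5p, log2 CPM was correlated over the 15 libraries with each of the 176 other rows that had more than 10 reads in every library. These correlations are descriptions without a test, the libraries share their group differences, and the median r was -0.00285. The closest 5 were mir-7688-5p (r = 0.79, rho = 0.757), mir-210-5p (r = 0.69, rho = 0.693), mir-31-5p (r = 0.64, rho = 0.629), mir-380-3p (r = 0.61, rho = 0.486) and mir-499-5p (r = 0.61, rho = 0.657). Mir-210 is known for its response to low oxygen, and mir-499 lies in a myosin gene of the heart. Without the 2 libraries farthest from the median of mir-298-5p, r was between 0.60 and 0.77 for 4 of them and 0.28 for mir-380-3p.

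Mir-7688-5p followed the order of mir-298-5p, with 98.5 ± 39.2 CPM in wt, 190 ± 36.0 CPM in AGAT-/- and 150 ± 43.7 CPM in AGAT-/-hArg mice (SD, n = 5 each). Its AGAT-/-hArg mice did not pass the FDR against AGAT-/- mice (log2 fold change -0.33, FDR = 0.735, edgeR). Mir-31-5p was also higher in AGAT-/-hArg than in wt mice and passed there (log2 fold change 0.46, FDR = 0.00764, edgeR), at 1597 ± 148 CPM against 1151 ± 108 CPM (SD, n = 5 each). In the 10 AGAT-deficient mice, the slope with the animal number was 0.30 per 100 numbers for mir-7688-5p (unadjusted 95% interval -0.00022 to 0.59) and -0.03 for mir-31-5p (-0.21 to 0.15). Neither passed the FDR, and differences between slopes were not tested. Both rows were picked by their correlation with mir-298-5p over libraries that include these 10.

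The row that ran most opposite was mir-215-5p, a miRNA of the p53-responsive mir-192 family (r = -0.83, rho = -0.821). It was at 2705 ± 102 CPM in wt, 1681 ± 169 CPM in AGAT-/- and 1788 ± 216 CPM in AGAT-/-hArg mice (SD, n = 5 each). Against wt mice it was lower in AGAT-/-hArg mice (log2 fold change -0.61, FDR = 0.000265, edgeR).

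**Figure D4:**
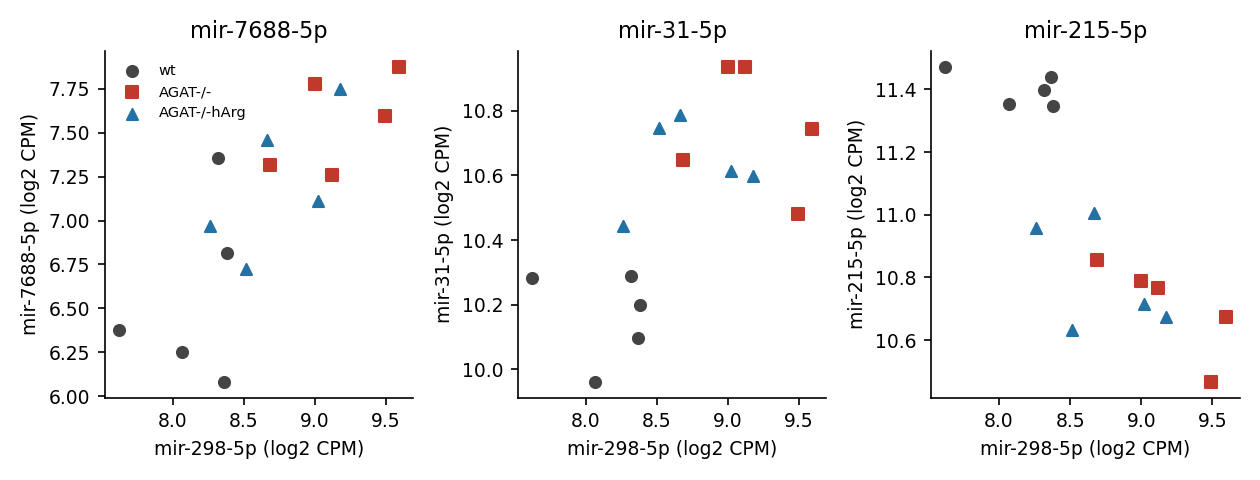
Log2 CPM of mir-298-5p (x axes) against mir-7688-5p, mir-31-5p and mir-215-5p (y axes, which do not start at 0) in the 15 libraries, with the symbol giving the group. Mir-7688-5p and mir-31-5p were higher in libraries with more mir-298-5p (r of 0.79 and 0.64), and mir-215-5p was lower (r of -0.83).

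Deviations from the group means, which leave out the differences between groups, gave a partly different set. The closest rows were mir-6944-3p (r = 0.67, rho = 0.614), mir-199b-5p (r = 0.65, rho = 0.618), mir-380-3p (r = 0.65, rho = 0.579), mir-361-3p (r = 0.63, rho = 0.646) and mir-7688-5p (r = 0.50, rho = 0.493). Their slopes with the animal number in the 10 AGAT-deficient mice were 0.37 per 100 numbers for mir-6944-3p (unadjusted 95% interval 0.07 to 0.67), 0.19 for mir-199b-5p (0.015 to 0.357), 0.31 for mir-380-3p (-0.085 to 0.70) and 0.17 for mir-361-3p (-0.028 to 0.36). These slopes were above 0 and did not pass the FDR over all rows (FDR between 0.698 and 0.905, edgeR). The rows were picked for following mir-298-5p in libraries that include these 10. A slope of the same sign as that of mir-298-5p is therefore in part built in, and nothing is read from it. Mir-380-3p, which comes from the imprinted Dlk1-Dio3 cluster of chromosome 12, is in both sets. It had 41.9 ± 10.2, 51.4 ± 17.2 and 53.7 ± 7.38 CPM in wt, AGAT-/- and AGAT-/-hArg mice (SD, n = 5 each), and passed the FDR in none of the comparisons.

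Other imprinted miRNAs were described by lists. These held 74 rows of the Dlk1-Dio3 cluster, which is expressed from the maternal copy, 160 of the Sfmbt2 cluster, which like the pair is on chromosome 2 and expressed from the paternal copy, and 6 of mir-675, mir-483 and mir-335. Between AGAT-/- and wt mice, 103 of these 240 rows were tested. None passed the FDR in edgeR (2.14% of all rows did) or in DESeq2 (14 of all 562 rows did), while 6 had an unadjusted p below 0.05 (10.7% of all rows did). The median log2 fold change of the 103 rows was -0.17, with -0.09 for Dlk1-Dio3, -0.24 for Sfmbt2 and -0.04 for all rows tested. None of the 104 tested against AGAT-/- mice and none of the 107 tested against wt mice passed in AGAT-/-hArg mice by edgeR or DESeq2. Of all rows, 0.69% and 2.99% did by edgeR, and 5 of 580 and 22 of 569 by DESeq2. An unadjusted p below 0.05 was found for 4 of the 104 and 2 of the 107 (7.41% and 12.5% of all rows). The median log2 fold changes of the 104 and the 107 rows were 0.13 and 0.04, beside 0.014 and 0.015 for all rows tested.

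Of the rows on chromosome 2 outside the pair and the Sfmbt2 cluster, 31 were tested between AGAT-/- and wt mice. In edgeR 1 passed the FDR (2.14% of all rows did), and in DESeq2 2 passed (14 of all 562 rows did). An unadjusted p below 0.05 was found for 5 of the 31 (10.7% of all rows). The row passing in edgeR was mir-130a-5p (log2 fold change 1.26, standard error 0.29, FDR = 0.0217, edgeR). The median over the 31 rows was 0.14, beside -0.04 for all rows tested. Against wt mice, AGAT-/-hArg mice differed in 1 of 29 such rows, mir-499-5p (log2 fold change 0.43, standard error 0.10, FDR = 0.0129, edgeR), against 2.99% of all rows. DESeq2 also called 1 (22 of all 569 rows), and 6 had an unadjusted p below 0.05 (12.5% of all rows). None of 32 passed between AGAT-/-hArg and AGAT-/- mice by edgeR (0.69% of all rows) or DESeq2 (5 of all 580 rows). Of the 32, 3 had an unadjusted p below 0.05 (7.41% of all rows).

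Rows of 5 marker lists were summed in each library. As the 3p rows of mir-1a and mir-133a are listed at 0, these sums do not settle the tissue or its cell types. Of 14 heart muscle rows, 6 were at 0 (the 3p arms of mir-1a, mir-133a, mir-208a and mir-208b), and the list summed to between 1789 and 2079 CPM in wt, 1900 and 2616 CPM in AGAT-/- and 2007 and 2436 CPM in AGAT-/-hArg mice. Smooth muscle rows, of which 2 of 6 including mir-143-3p were at 0, summed to between 9571 and 11960, 9953 and 13920, and 10120 and 16970 CPM in the same order. Endothelial rows, none of 4 at 0, summed to at most 29.4 CPM in any library. Blood cell rows, of which 7 of 18 including both arms of mir-451a were at 0, lay between 9072 and 11230 CPM, and neuronal and endocrine rows, 11 of 20 at 0, between 326 and 444 CPM. In edgeR, the only row of these lists that passed the FDR in any of the 3 comparisons was mir-499-5p, in AGAT-/-hArg against wt mice. It was 1 of 8 heart muscle rows tested there, and 2.99% of all rows passed. Between AGAT-/- and wt mice it was at FDR = 0.0647 (edgeR). DESeq2 called 1 of 8 heart muscle rows in the first of these comparisons (22 of all 569 rows) and 1 of 7 in the second (14 of all 562 rows). It called no other row of the marker lists in the 3 comparisons. The part of cell composition in the levels of mir-298-5p was not tested.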

How the data were processed

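Small RNA of the LV of 15 mice was made into TruSeq libraries and sequenced on an Illumina HiSeq instrument. In the CLC Genomics Workbench, reads were assigned by the authors to mouse entries of miRBase; they deposited raw counts, whole numbers of reads per mature miRNA row. The labels name GRCm38; the miRBase release and the treatment of reads matching several miRNAs are not given in the sources used here. Library totals lay between 365634 and 570492 reads.

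Groups followed the labels. Differential expression was calculated over all rows with edgeR 4.0.16 (R 4.3.3; TMM, glmQLFit, glmQLFTest), for rows whose 10 libraries held more than 10 reads in all, with Benjamini-Hochberg adjustment and an FDR of at most 0.05. Levels per mouse are CPM after TMM over all 15 libraries, with a prior count of 1 on the log2 scale. The edgeR fit of AGAT-/- and wt mice was tested on simulated data with known changes. Alternatives used DESeq2 1.42.0, limma 3.58.1, other normalizations and filters, all 15 libraries, the animal number as covariate, the 3 most abundant miRNAs left out, and each mouse left out. Summaries used Python 3.11.15 and scipy 1.17.1.

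Named rows are the pair, the 5 rows most like mir-298-5p by each of 2 correlations, and called rows of the imprinted, chromosome 2 and marker lists; the most opposite row was added after its values were seen. The members and lists were chosen with earlier results of these data known. Rows were placed on GRCm38 by matching names to GENCODE M21, which found 1742 of 1836 rows (94.9%); all 4 rows of the pair matched RefSeq sequences. QPCR and array data were not analysed here.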

Additional observations from a re-analysis of the deposited data

Results flagged for a closer look

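Among 42 groups of 5 values checked for a mouse far from the others, 3 stood out, where chance gives about 1 in 20. AGAT-/-hArg mouse 12 had 1 read of mir-298-3p and the other 4 mice of its group none. AGAT-/- mouse 10 had 1 read of mir-296-5p and the other 4 none, so both cases rest on a single read. For mir-210-5p the lowest wt mouse, at 254.4 CPM, lay below the other 4 by 0.759 of the range of the group.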

How the results depend on the processing

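No paired analysis was possible. Each library is a different mouse, and the litters by which littermates could be paired are not given in the sources used here. The sign of the mir-298-5p difference held in each comparison and setting run. Between AGAT-/- and wt mice its log2 fold change was 1.03, it lay between 0.91 and 1.19 with each mouse left out, and it moved to 0.62 with the animal number as covariate; 8 to 17 miRNAs passed the FDR with each mouse left out. Between AGAT-/-hArg and AGAT-/- mice it was -0.46, between -0.58 and -0.35 with each mouse left out (3 to 6 miRNAs passing). With rows of at least 1 read it was -0.45 and passed, and 8 miRNAs passed in place of 4, while 2 passed with more than 10 reads in every library. Between AGAT-/-hArg and wt mice it was 0.57, between 0.46 and 0.68 with each mouse left out, passing only without AGAT-/-hArg mouse 13. It passed at 0.67 with total counts, 0.58 with DESeq2 and 0.60 with rows of at least 1 read. In place of 17 miRNAs, 28 passed there with rows of at least 1 read, 10 with the animal number as covariate and 10 to 20 with each mouse left out; the counts of 10, 11 and 10 came without wt mice 3 and 5 and AGAT-/-hArg mouse 15. With mice up to number 4700 only, a setting chosen after seeing the data, it was 0.33 (FDR = 0.524, edgeR) and 7 miRNAs passed. The cause of these changes was not tested. Mir-298-3p and mir-296 hold 8 reads in this table, and no change of theirs is described.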
